A study of Homo sapiens with 12 samples.

Results

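TAGLN, TPM1 and a group of related genes encode proteins that bind, crosslink or pull on actin filaments, and they are known as targets of serum response factor (SRF). The group held 10 genes (TAGLN, TPM1, TPM2, CNN1, ACTA2, MYL9, CALD1, FLNA, FLNC and NEXN) out of 65975 gene identifiers in the expression table, and each was found in 1 row by its symbol. TAGLN and TPM1 were chosen by their measured FPKM change with KDM3A knockdown, which differed between the cell lines, so their values are described without a test in every comparison, and tests are given for the other 8. RNA-seq was done on 12 libraries, 3 in each of 4 groups. RD is an established fusion-negative rhabdomyosarcoma (FN-RMS) line and Rh30 an established fusion-positive (FP-RMS) line. Cells of both lines were transduced with lentivirus for a control shRNA (Scramble) or for 1 shRNA against the histone demethylase KDM3A (KDM3A-sh2), and all 4 groups were selected with puromycin. RD cells were grown in DMEM and Rh30 cells in RPMI, so line and medium cannot be told apart. Separate cultures are not stated for the replicates, and p-values then measure only the spread between these libraries, which may be technical. KDM3A-sh2 was the only targeting shRNA sequenced.

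SRF binds a DNA element called the CArG box, in which CC and GG enclose a run of A and T. Its cofactors MKL1 and MKL2 are held in the cytoplasm by free actin monomers and enter the nucleus when these monomers are taken up into filaments, which links the state of the cytoskeleton to transcription of cytoskeletal genes. Smooth muscle cells, myofibroblasts and early skeletal and cardiac muscle all use this program. Rhabdomyosarcoma cells express skeletal muscle regulators without completing muscle differentiation.

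The promoter sequences of RefSeq (GRCh38.p14), each running from 250 bases before a gene start to 50 bases after it, held 13 windows for 8 of the 10 genes. TAGLN and MYL9 had no entry. A full CArG box was found in 1 of the 13 windows, that of FLNA, compared with 1.29% of all 35116 windows. With 1 base other than A or T allowed in the core, 3 of the 13 windows (FLNA, CALD1 and ACTA2) held a match, compared with 8.13% of all windows. The stretches that carry these matches are written 5′ to 3′ on the strand of the gene, with the match in capitals. FLNA, which is on the minus strand, is shown from chrX:154374699-154374748, with its match 94 bases before the gene start. CALD1, on the plus strand, is shown from chr7:134711453-134711502, and ACTA2, on the minus strand, from chr10:88952865-88952914 and chr10:88952815-88952864, where the matches begin 121 and 71 bases before the start.
FLNA: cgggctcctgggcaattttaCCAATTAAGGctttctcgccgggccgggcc
CALD1: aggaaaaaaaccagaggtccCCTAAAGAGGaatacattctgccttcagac
ACTA2, distal: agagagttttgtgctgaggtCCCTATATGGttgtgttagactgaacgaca
ACTA2, proximal: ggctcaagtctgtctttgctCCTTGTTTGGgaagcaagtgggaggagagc

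The word CATTCC, the core of the muscle MCAT element bound by TEAD factors, was sought on both strands of the same windows. It occurred in 5 of the 13 windows, belonging to 4 genes (NEXN, FLNC, CALD1 and ACTA2), and in 14.0% of all windows. None of these matches overlaps a CArG match. FLNC and NEXN are shown because both fell in RD and in Rh30. FLNC is shown from chr7:128830283-128830328 and NEXN from chr1:77888524-77888569, both on the plus strand, and in NEXN the word lies on the opposite strand and reads GGAATG.
FLNC: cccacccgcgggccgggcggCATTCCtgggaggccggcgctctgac
NEXN: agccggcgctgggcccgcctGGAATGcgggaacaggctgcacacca
The windows of TPM1, CNN1 and TPM2 held neither word, and the same was true of 1 window each of ACTA2 and CALD1. These matches are descriptions of sequence and no binding was measured.

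Expression was given as FPKM, a fragment number divided by exon length and by library size, so levels can be compared between genes. Summed FPKM of the libraries lay between 1198300 and 1379197. Read numbers are not part of FPKM, but the spacing of the lowest values gave each library a depth relative to the median library. By group, the median of this depth was 1.06 with Scramble and 0.983 with KDM3A-sh2 in RD, and 1.00 and 0.956 in Rh30, so it was lower with KDM3A-sh2 in both lines. Correlation across genes within a group was 0.987 to 0.989. KDM3A, the target, was at 33.5 ± 2.50 FPKM (SD, n = 3) in RD Scramble and 12.2 ± 1.09 in RD KDM3A-sh2. The Rh30 levels of KDM3A were 29.7 ± 2.14 and 14.1 ± 1.15 FPKM. Its log2 fold change was -1.39 in RD (limma, adjusted p = 5e-05) and -1.02 in Rh30 (limma, adjusted p = 0.000348). KDM3A thus fell further in RD, and the Rh30 value minus the RD value was 0.37 ± 0.12 SE (limma interaction, adjusted p = 0.0388). Of the skeletal myogenic markers, MYOD1 and MYOG were abundant in both lines (MYOD1 at 134 FPKM in RD and 770 in Rh30 with Scramble), and 6 of 8 listed markers reached a mean of 1 FPKM. Of the 8 smooth muscle markers, 4 or 5 reached a mean of 1 FPKM in each group, with NOTCH3 the highest of them (117 FPKM in RD and 69.9 in Rh30 with Scramble). The smooth muscle myosin gene MYH11 stayed at or under 0.259 FPKM in all 12 libraries, and LMOD1 and KCNMB1 were listed at 0 in Rh30.

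TAGLN and TPM1 moved in different ways in the 2 lines. TAGLN encodes transgelin, a small calponin-type protein that binds along actin filaments, and TPM1 encodes a tropomyosin, the coiled-coil protein that lies in the groove of the filament. TAGLN (ENSG00000149591; GRCh38, chromosome 11, 117199321 to 117204782) was at 35.4, 37.4 and 36.3 FPKM in RD cells with Scramble and at 72.0, 64.9 and 68.8 FPKM with KDM3A-sh2. In Rh30 cells TAGLN was at 15.8, 18.6 and 16.5 FPKM with Scramble and at 5.34, 5.76 and 5.20 FPKM with KDM3A-sh2. The KDM3A-sh2 libraries were thus all higher than Scramble in RD and all lower in Rh30, with no overlap. The group means were 36.4 ± 1.00 and 68.6 ± 3.54 FPKM in RD (SD, n = 3), a ratio of 1.88 (log2 fold change 0.89 ± 0.05 SE). They were 16.9 ± 1.48 and 5.44 ± 0.292 FPKM in Rh30, a ratio of 0.321 (log2 fold change -1.48 ± 0.08). The 4 groups therefore ran in the order RD KDM3A-sh2, RD Scramble, Rh30 Scramble and Rh30 KDM3A-sh2, and no neighbours in this order overlapped. Subtracting the RD value from the Rh30 value gave -2.37 ± 0.09, the difference by which the gene was chosen. All fold changes are on the log2(FPKM + 1) scale, which understates changes of genes with low FPKM. In bulk RNA, fewer expressing cells and less RNA per cell cannot be told apart.

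TPM1 (ENSG00000140416), on chromosome 15 from 63042632 to 63071915, showed another order. Its FPKM in RD were 149.9, 153 and 149 with Scramble and 134, 133 and 134 with KDM3A-sh2. In Rh30 they were 271, 275 and 293 with Scramble and 92.6, 90.3 and 94.5 with KDM3A-sh2. The RD libraries thus differed little although the groups did not overlap, while Rh30 went from the highest level of the 4 groups to the lowest. The means were 150.5 ± 2.05 and 133.8 ± 0.584 FPKM in RD (log2 fold change -0.17 ± 0.03 SE) and 279.5 ± 11.5 and 92.5 ± 2.11 FPKM in Rh30 (log2 fold change -1.58 ± 0.04). With KDM3A-sh2 the level in Rh30 was 0.331 of the Scramble level, compared with 0.889 in RD. The difference between the lines was -1.42 ± 0.05 on the log2 scale. TPM1 has 34 annotated transcripts in GENCODE 29, among them muscle and non-muscle forms, and the table gives 1 value for the gene.

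**Figure D1:**
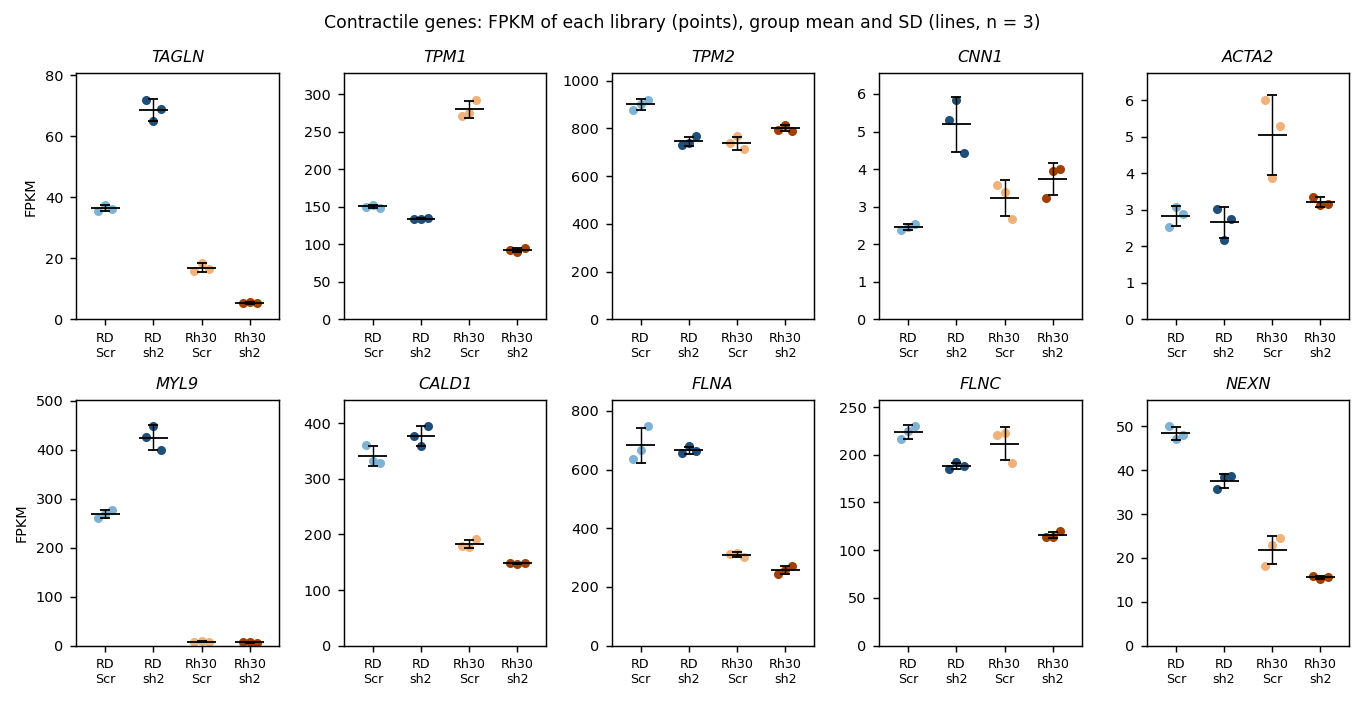
FPKM (vertical axes, each from 0) of the 10 contractile genes in the 4 groups (horizontal axes; Scr, Scramble; sh2, KDM3A-sh2), where points are single libraries, wide lines are group means and bars are SD (n = 3). TAGLN with KDM3A-sh2 lies above Scramble in RD (68.6 against 36.4 FPKM) and below it in Rh30 (5.44 against 16.9 FPKM), and TPM1 drops mainly in Rh30.

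Among the 8 genes open to a test, KDM3A-sh2 raised 2 (CNN1 and MYL9) and lowered 3 (TPM2, FLNC and NEXN) in RD, at an adjusted p under 0.05 (limma). That is 5 of 8, beside 41.1% of all 17988 genes tested in RD. In Rh30 none of the 8 rose and 5 fell (ACTA2, CALD1, FLNA, FLNC and NEXN), beside 28.5% of 17803 genes called in either direction and 13.2% called lower. The median log2 fold change of the 8 was -0.05 in RD and -0.28 in Rh30, and that of all genes was 0.01 and 0.03. Of the 8, FLNC and NEXN fell in both lines, beside 921 of 11256 genes that have a 3′ UTR and were tested in both lines. The study looked for genes lower in both lines in these same libraries, so the drops are not independent evidence of that direction. The groups did not overlap for 5 of the 8 in RD, beside 53.4% of all genes, and for 6 of the 8 in Rh30, beside 45.8%. For groups of 3 libraries the smallest p of an exact permutation test is 0.1, so smaller values rest on the limma model.

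CNN1 and CALD1 encode calponin and caldesmon, which restrain myosin. Like transgelin, both lie on the thin filament. CNN1 (ENSG00000130176; chromosome 19, 11538717 to 11550323) was low in every library. With Scramble its FPKM in RD were 2.39, 2.45 and 2.53, and with KDM3A-sh2 they were 5.31, 5.85 and 4.41. The Rh30 values were 3.59, 3.39 and 2.68 with Scramble and 3.23, 3.95 and 4.00 with KDM3A-sh2. CNN1 therefore rose without overlap in RD (log2 fold change 0.84 ± 0.11 SE, limma, adjusted p = 0.00138), while in Rh30 the groups overlapped (0.17 ± 0.13, adjusted p = 0.374). The difference between the lines was -0.67 ± 0.16 (limma interaction, adjusted p = 0.0111).

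CALD1 (ENSG00000122786; chromosome 7, 134744252 to 134970728) was abundant and changed little. Its FPKM in RD were 362, 332 and 329 with Scramble and 377, 359.6 and 395 with KDM3A-sh2, and these overlapped. Rh30 values were 179, 177 and 191 with Scramble and 149, 147 and 149 with KDM3A-sh2, which did not overlap. The log2 fold change was 0.15 ± 0.05 in RD (limma, adjusted p = 0.0592) and -0.30 ± 0.04 in Rh30 (limma, adjusted p = 0.00229). The RD value passed the threshold in 4 alternative settings, 2 of which left out a library (RD Scramble replicate 1, adjusted p = 0.026, or RD KDM3A-sh2 replicate 2, adjusted p = 0.0498). The lines differed by -0.44 ± 0.07 (limma interaction, adjusted p = 0.000569).

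TPM2, which encodes the beta tropomyosin of slow muscle, was the most abundant of the 10 genes with Scramble in both lines and the only 1 of the 8 whose difference between the lines was positive. TPM2 (ENSG00000198467; chromosome 9, 35681992 to 35690121) was at 877, 904 and 921 FPKM in RD Scramble and at 731, 740.0 and 766 FPKM in RD KDM3A-sh2. In Rh30 TPM2 was at 737, 767 and 712 FPKM with Scramble and at 795, 815 and 790.4 FPKM with KDM3A-sh2. RD thus came down and Rh30 went up slightly, without overlap in either line. The log2 fold change of TPM2 was -0.27 ± 0.03 in RD (limma, adjusted p = 0.000821) and 0.12 ± 0.04 in Rh30, which missed the threshold (limma, adjusted p = 0.0514). Without Rh30 Scramble replicate 2 the Rh30 value was 0.14 (adjusted p = 0.0347). The difference was 0.39 ± 0.05 (limma interaction, adjusted p = 0.000156).

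Seen against its family, the drop of TPM1 in Rh30 changed the make-up of the tropomyosin transcripts. TPM1 was 16.3 to 17.6% of the summed FPKM of TPM1, TPM2, TPM3 and TPM4 in Rh30 Scramble and 6.26 to 6.71% in Rh30 KDM3A-sh2. In RD it was 6.86 to 7.05% and 6.92 to 7.25%. TPM2 went from 42.7 to 46.2% of the sum in Rh30 Scramble to 55.3 to 56.5% with KDM3A-sh2, and in RD from 40.3 to 42.4% to 39.4 to 40.2%. The sum itself was lower with KDM3A-sh2 in both lines (2171 against 1876 FPKM in RD and 1662 against 1430 in Rh30). In the same way TAGLN was 6.50 to 6.88% of the transgelins with Scramble in RD and 11.8 to 12.4% with KDM3A-sh2, and in Rh30 it was 4.32 to 5.00% and 1.85 to 1.93%. TAGLN2 made up most of that family in every group (87.3 to 93.2% over the 12 libraries). These shares are descriptions, since TAGLN and TPM1 chose the comparison.

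**Figure D2:**
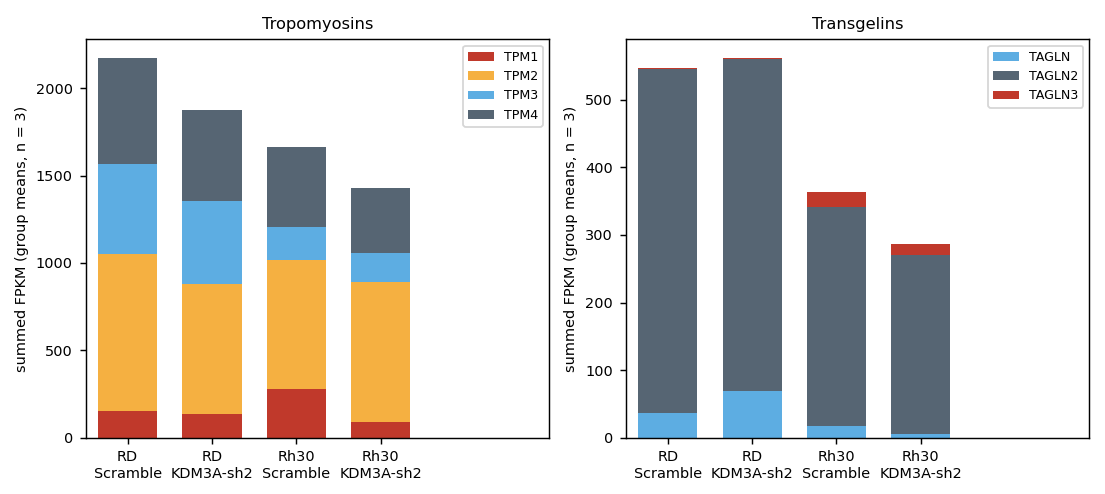
Summed FPKM (vertical axes, group means, n = 3, from 0) of the tropomyosin and transgelin genes in the 4 groups, with each colour 1 gene. TPM1 is 279.5 FPKM of a tropomyosin sum of 1662 in Rh30 Scramble and 92.5 of 1430 with KDM3A-sh2, and TAGLN is 36.4 FPKM of a transgelin sum of 547 in RD Scramble and 68.6 of 561 with KDM3A-sh2.

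ACTA2 encodes smooth muscle alpha-actin, and MYL9 encodes the regulatory light chain of smooth and non-muscle myosin. ACTA2 (ENSG00000107796; chromosome 10, 88935074 to 88991339) was near 3 FPKM in RD, at 2.54, 3.08 and 2.89 with Scramble and 3.03, 2.18 and 2.76 with KDM3A-sh2. Its FPKM in Rh30 were 6.01, 3.87 and 5.29 with Scramble and 3.36, 3.12 and 3.15 with KDM3A-sh2. Rh30 Scramble replicate 2 was close to the knockdown libraries, and the groups did not overlap. The log2 fold change was -0.07 ± 0.13 in RD (limma, adjusted p = 0.679) and -0.51 ± 0.15 in Rh30 (limma, adjusted p = 0.0406). The Rh30 call was lost in 8 of the alternatives, 5 of them with 1 library left out. The difference between the lines was -0.43 ± 0.19 (limma interaction, adjusted p = 0.119), and without Rh30 Scramble replicate 2 it was -0.58 (adjusted p = 0.0225). ACTA2 was at most 0.0574% of the summed FPKM of the 6 actin genes in any library.

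MYL9 (ENSG00000101335; chromosome 20, 36541484 to 36551447) had the widest gap between RD and Rh30 levels with Scramble of the 10 genes. Its FPKM in RD were 261, 269 and 276 with Scramble and 426, 448 and 399 with KDM3A-sh2. Those in Rh30 were 6.93, 8.74 and 8.33 with Scramble and 6.51, 7.11 and 6.47 with KDM3A-sh2. MYL9 thus rose without overlap in RD, where the log2 fold change was 0.66 ± 0.05 (limma, adjusted p = 0.000114). In Rh30 the groups overlapped and the value was -0.22 ± 0.10 (limma, adjusted p = 0.138). The difference was -0.88 ± 0.10 (limma interaction, adjusted p = 0.000144). With MYL12A and MYL12B, its near relatives, MYL9 was 21.0 to 22.4% of the summed FPKM in RD Scramble and 28.0 to 30.6% with KDM3A-sh2, and at most 1.61% in Rh30.

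FLNA, FLNC and NEXN hold filaments together. Filamin A crosslinks actin in most cells, filamin C is its muscle form at the Z-disc, and nexilin is an actin-binding protein of Z-discs and adhesions. FLNA (ENSG00000196924; chromosome X, 154348524 to 154374638) had FPKM in RD of 634, 666 and 749 with Scramble and 655, 679.8 and 663 with KDM3A-sh2. In Rh30 FLNA was at 314, 315 and 301 FPKM with Scramble and at 244, 258 and 269.8 FPKM with KDM3A-sh2. The RD groups overlapped (log2 fold change -0.03 ± 0.06, limma, adjusted p = 0.696) and the Rh30 groups did not (-0.27 ± 0.04, limma, adjusted p = 0.00625). The RD value was 0.03 without RD Scramble replicate 3. The difference between the lines was -0.24 ± 0.08 and only just passed (limma interaction, adjusted p = 0.049), and it missed the threshold with any of 9 single libraries left out (adjusted p from 0.0554 to 0.11).

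FLNC (ENSG00000128591; chromosome 7, 128830377 to 128859274) fell in both lines and fell further in Rh30. In RD its FPKM were 217, 225 and 230.2 with Scramble and 186, 192 and 188 with KDM3A-sh2. In Rh30 they were 220.3, 222 and 191 with Scramble and 113, 114 and 119.8 with KDM3A-sh2. Neither line had an overlap. The log2 fold change was -0.25 ± 0.03 in RD (limma, adjusted p = 0.00165) and -0.86 ± 0.06 in Rh30 (limma, adjusted p = 0.000317), and the lines differed by -0.61 ± 0.08 (limma interaction, adjusted p = 0.000174).

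NEXN (ENSG00000162614; chromosome 1, 77888513 to 77943895) fell by a like amount in both lines. Its FPKM in RD were 50.1, 47.1 and 48.0 with Scramble and 35.6, 38.5 and 38.6 with KDM3A-sh2. The values in Rh30 were 18.2, 22.9 and 24.5 with Scramble and 15.9, 15.2 and 15.6 with KDM3A-sh2. The groups did not overlap in either line. The log2 fold change was -0.36 ± 0.05 in RD (limma, adjusted p = 0.00155) and -0.46 ± 0.11 in Rh30 (limma, adjusted p = 0.0206), and the difference was -0.10 ± 0.12 (limma interaction, adjusted p = 0.6). The Rh30 call was lost in 7 of the alternatives, 5 of them with 1 library left out (Rh30 Scramble replicate 2 or 3, or any KDM3A-sh2 library, adjusted p from 0.0518 to 0.0633).

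**Figure D3:**
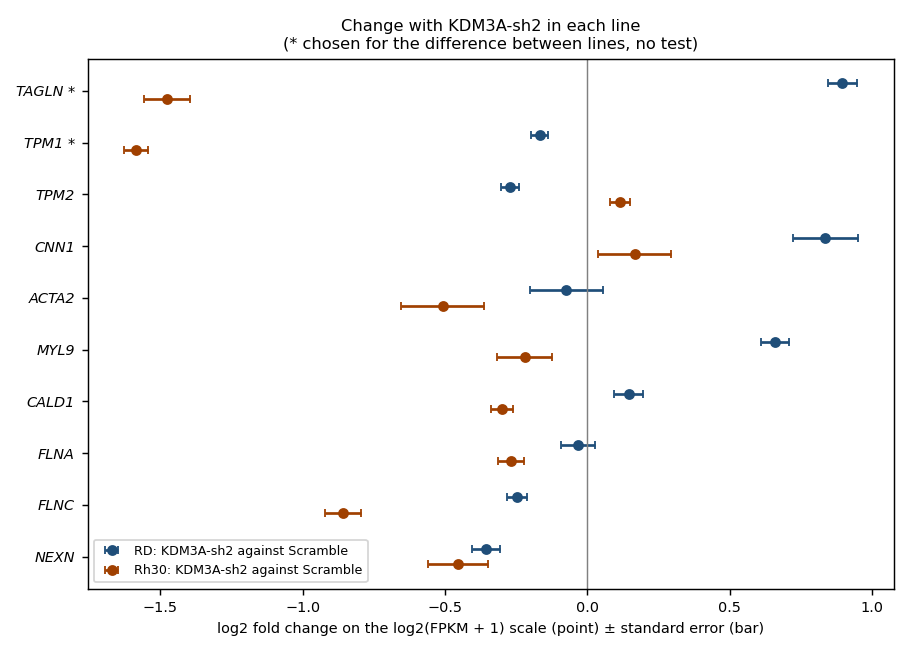
Log2 fold change (horizontal axis, log2(FPKM + 1) scale) of KDM3A-sh2 against Scramble for each gene in RD (blue) and Rh30 (brown), with bars for the standard error of the limma fit. TAGLN is at 0.89 in RD and -1.48 in Rh30, MYL9 at 0.66 and -0.22, and the starred TAGLN and TPM1 were chosen for their difference and carry no test.

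Over the 8 genes, the change differed between the lines in 6, with 5 more negative in Rh30 (CNN1, MYL9, CALD1, FLNA and FLNC) and 1 more positive (TPM2). Of all 18517 genes tested, 27.8% were called for this difference and 13.4% in the negative direction. The median difference of the 8 was -0.44, and that of all genes was 0.02. Since the difference is made from the RD and Rh30 comparisons, it repeats their values and adds only the test between them.

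With Scramble alone, the share of these genes that differed between the lines was near that of all genes. Of the 8, ACTA2 was higher in Rh30 and 5 (TPM2, MYL9, CALD1, FLNA and NEXN) were lower, beside 74.5% of 18357 genes called in either direction, 35.0% higher and 39.6% lower. The Scramble groups of the lines did not overlap for 7 of the 8, beside 77.5% of all genes. MYL9 stood furthest apart, at 268 ± 7.66 FPKM in RD and 8.00 ± 0.951 in Rh30 (log2 fold change of Rh30 against RD -4.91 ± 0.08, limma, adjusted p = 1.85e-08). FLNA was at 683 ± 59.1 and 309.8 ± 7.76 FPKM (-1.14 ± 0.06, limma, adjusted p = 3.49e-06), and CALD1 and NEXN differed by -0.90 and -1.12 (adjusted p = 3.73e-06 and 5.58e-05). ACTA2 was higher in Rh30 by 0.64 ± 0.15 (limma, adjusted p = 0.00627), and TPM2 was lower by a log2 value of -0.29 ± 0.04 (limma, adjusted p = 0.000325). For FLNC (-0.09 ± 0.06, adjusted p = 0.257) and CNN1 (0.28 ± 0.11, adjusted p = 0.0558) the limma test did not pass. TAGLN and TPM1, without a test, stood at -1.06 and 0.89, so that with Scramble TAGLN was higher in RD and TPM1 higher in Rh30. Scaling each library to the same sum shifted the median of all genes in this comparison by -0.10 on the log2 scale, and FLNC then passed (-0.20, adjusted p = 0.0203).

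SRF itself and its cofactors MKL1 and MKL2 did not pass the test in either line. SRF was at 19.0, 20.7 and 21.2 FPKM in RD Scramble and 18.6, 20.6 and 18.5 in RD KDM3A-sh2. In Rh30 SRF was at 28.5, 30.6 and 26.8 FPKM with Scramble and 29.6, 31.2 and 30.3 with KDM3A-sh2. The SRF groups overlapped in both lines, with log2 fold changes of -0.08 ± 0.07 (limma, adjusted p = 0.409) and 0.08 ± 0.06 (adjusted p = 0.349). The cofactor MKL1 had values of -0.04 (adjusted p = 0.633) and -0.22 (adjusted p = 0.241), and MKL2 had 0.21 (adjusted p = 0.199) and -0.08 (adjusted p = 0.664). MYOCD, the smooth muscle cofactor, was at or under 0.109 FPKM in every library and was not tested. Of the 8 regulators tested, 1 was higher and 1 lower in RD, and 2 were higher and 3 lower in Rh30, beside 21.6% higher and 19.5% lower among all genes in RD and 15.3% and 13.2% in Rh30. FHL2, a LIM protein that binds SRF, rose in RD (0.15, limma, adjusted p = 0.0184) and in Rh30 (0.34, adjusted p = 0.00208). ELK4, which competes with MKL1 for SRF, fell in both (-0.57, adjusted p = 0.015, and -0.49, adjusted p = 0.00353). SCAI, a repressor of MKL1, fell in Rh30 (-0.67, limma, adjusted p = 0.0416).

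Most of the tested relatives, which cover the transgelins, tropomyosins, calponins, myosin light chains and actins, fell in Rh30. Of 13 such paralogs, 11 were lower and 0 higher in Rh30, beside 13.2% lower among all genes, and in RD 6 were lower and 2 higher, beside 19.5% and 21.6%. The neuronal transgelin TAGLN3 fell in Rh30 by a log2 value of -0.49 (adjusted p = 0.00256), MYL12A by -0.39 (limma, adjusted p = 0.00925) and ACTG1 by -0.38 (adjusted p = 0.00635). In RD the largest drops were in the actins ACTA1 (-0.82, limma, adjusted p = 0.0113) and ACTG1 (-0.52, adjusted p = 0.00016) and in CNN2 (-0.43, adjusted p = 0.00138). The median over the paralogs was -0.09 in RD and -0.25 in Rh30. Highly similar actin genes can share reads, so the split between ACTA2 and its relatives is uncertain.

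Other genes of the actin cytoskeleton known as SRF targets were mostly higher in RD. Of 16 tested, 10 were higher and 3 lower in RD, beside 21.6% and 19.5% of all genes, and 3 were higher and 7 lower in Rh30, beside 15.3% and 13.2%. The largest changes in RD were MYH10, a non-muscle myosin heavy chain (-0.82, limma, adjusted p = 5.66e-05), LIMA1, an actin-bundling protein (0.81, adjusted p = 1.96e-05), and the focal adhesion protein ZYX (0.51, adjusted p = 9.03e-05). In Rh30 they were MYLK, the kinase of myosin light chains (-0.68, limma, adjusted p = 0.0442), MYH9 (-0.59, adjusted p = 0.00483) and VCL, which encodes vinculin (-0.56, adjusted p = 0.000879). The difference between the lines passed the threshold as negative for 9 of the 16 and as positive for 2, beside 13.4% and 14.4% of all genes. LIMA1 had the largest of these, -0.93 ± 0.05 (limma interaction, adjusted p = 4.82e-07). The medians were 0.18 in RD and -0.15 in Rh30.

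**Figure D4:**
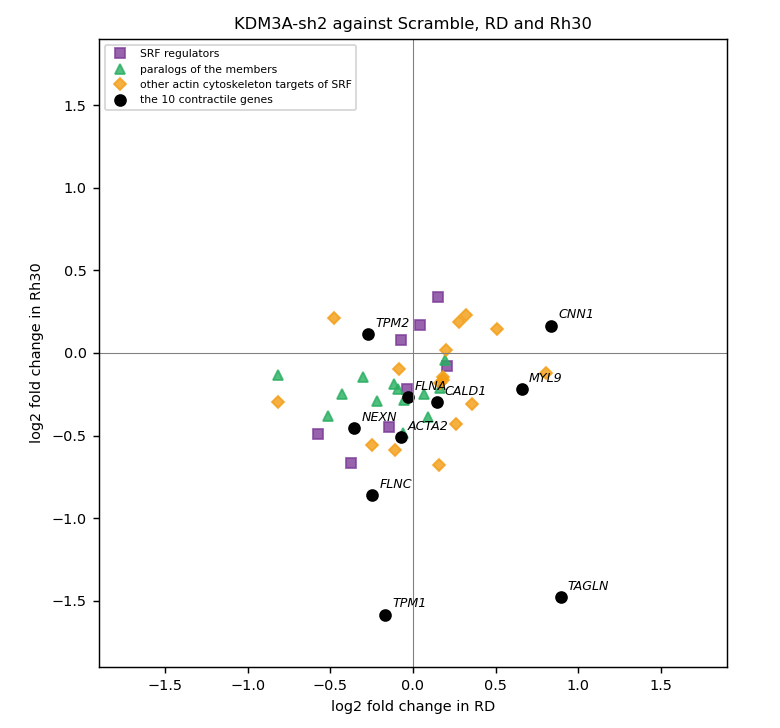
Log2 fold change (log2(FPKM + 1) scale) of KDM3A-sh2 against Scramble in RD (horizontal axis) and Rh30 (vertical axis), 1 point per gene, for the 10 contractile genes (black, named) and for 3 lists of SRF regulators, paralogs and other SRF targets. TAGLN and TPM1 lie lowest, at -1.48 and -1.58 in Rh30, and MYL9 and CNN1 lie with TAGLN on the right, at 0.66 and 0.84 in RD.

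The genes whose log2(FPKM + 1) followed TAGLN most closely over the 12 libraries, among 11017 genes averaging 10 FPKM or more, were PAPPA (Pearson's r = 0.996), MAP3K7CL (0.994), DYSF (0.993), IER3 (0.993) and BCL2L1 (0.993). PAPPA, a secreted metalloprotease, had means of 11.6 and 21.0 FPKM in RD and of 6.09 and 1.46 FPKM in Rh30 with Scramble and KDM3A-sh2. For TPM1 they were TNNT2 (r = 0.978), PTK7 (0.974), HHAT (0.972), HIF1A (0.964) and RASSF4 (0.963). TNNT2, the cardiac troponin T that binds tropomyosin, had 437 and 374 FPKM in RD and 575 and 288 FPKM in Rh30. The 12 libraries fall into 4 groups, and points of a group share their line and shRNA.

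Markers of other cell types and states were measured alongside, and their counts are set beside the shares of all genes called higher and lower (21.6% and 19.5% in RD, 15.3% and 13.2% in Rh30). Summed FPKM of the 9 fibroblast markers was 471 to 487 in RD Scramble and 752 to 809 in RD KDM3A-sh2, where 6 of 8 tested were higher and none lower. In Rh30 the sum was 33.2 to 38.6 with Scramble and 28.6 to 33.2 with KDM3A-sh2, where 2 of 6 tested were higher and 2 lower. COL1A1, the collagen chain of most connective tissue, rose from 125 ± 5.04 to 303 ± 11.2 FPKM in RD cells (log2 fold change 1.27, limma, adjusted p = 1.24e-05) and fell from 12.6 ± 3.08 to 5.86 ± 1.09 in Rh30 (-0.97, adjusted p = 0.0101), the same directions as TAGLN. LUM, the small proteoglycan lumican, rose in both lines (1.75 in RD, limma, adjusted p = 1.46e-05, and 0.48 in Rh30, adjusted p = 0.0306). The 8 skeletal myogenic markers summed to 2146 to 2368 FPKM in RD Scramble and 2652 to 2773 with KDM3A-sh2, and to 2457 to 2729 and 2832 to 2865 in Rh30. The sums do not reflect the single genes, since of 6 tested 2 were higher and 3 lower in RD and 2 were higher and 2 lower in Rh30. CHRNA1, an acetylcholine receptor subunit and the most abundant in RD, was at 1074 and 1436 FPKM there, while MYOD1 (-0.24, limma, adjusted p = 0.00383), MYOG (-0.14, adjusted p = 0.049) and CDH15 (-0.60, adjusted p = 0.000268) fell in RD. In Rh30 MYOD1 (0.28, limma, adjusted p = 0.0222) and MYOG (0.56, adjusted p = 0.0004) rose. CHRNA1 (-0.64, limma, adjusted p = 8.55e-05) and CDH15 (-0.25, adjusted p = 0.0332) fell there. The 8 smooth muscle markers summed to 171 to 177 and 158 to 162 FPKM in RD and to 91.0 to 103 and 77.3 to 90.3 in Rh30. Of the 4 smooth muscle markers tested, 1 was higher and 1 lower in each line. The part of these markers in the results was not tested.

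Genes on the opposite strand overlap several of the 10, and the strand setting of the counting was not found in the sources used here. PCSK7, which overlaps TAGLN, had group means of 34.2 and 39.9 FPKM in RD and 17.2 and 17.9 in Rh30. Its mean was thus higher with KDM3A-sh2 in RD, the direction of TAGLN, and not lower in Rh30. Whether reads of overlapping genes entered these values was not tested. STAMBPL1, which overlaps ACTA2, had 2.54 and 1.196 FPKM in Rh30, the same direction as ACTA2. TPM1-AS was at or near 0 in all groups.

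The 7-base word TGAAGCA is more frequent in the 3′ UTRs of genes that were lower with KDM3A-sh2. Of genes with a 3′ UTR tested in both lines, 16.9% of 11256 hold it, compared with 29.5% of those lower in Rh30, 23.1% of those lower in RD and 36.9% of those lower in both. Among genes called higher it was 11.0% in Rh30 and 11.9% in RD. The reason for choosing this word is not given here, and the shares were not adjusted for 3′ UTR length. They are descriptions, and their cause was not tested. Of the 10 genes, only CALD1 and NEXN held it in their longest annotated 3′ UTR in GENCODE 29, at base 1265 of 2383 and base 592 of 1062. TAGLN, whose 3′ UTR has 423 bases, held neither the word nor either of its 6-base parts, TGAAGC and GAAGCA, and TPM1 held 2 of these parts in 3493 bases. The sites of CALD1, at chr7:134969599-134969628, and NEXN, at chr1:77943410-77943439, both on the plus strand of GRCh38, are shown with the word in capitals because they are the only full matches in the group.
CALD1: tttatatactcTGAAGCAtttcttcaaact
NEXN: caaagtctttcTGAAGCAgatatattggga
A match is a description of the sequence, and its part in the changes of these genes was not tested.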

How the data were processed

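RNA-seq libraries (12, 3 per group) were analysed from 1 deposited table of FPKM. Per the labels and Methods, the authors prepared directional mRNA libraries, aligned single-end reads to GRCh38 with GSNAP, handled alignments with SAMtools and computed FPKM per gene with Cufflinks. Strand setting and annotation release are not given in the sources used here, and read numbers are unknown. The table lists 66095 entries for 65975 identifiers. Where an identifier was repeated (117 cases) only its higher entry by mean was used, and placeholder values in 17 genes were treated as missing. None of these concern the 10 genes.

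Comparisons used limma 3.58.1 in R 4.3.3 (lmFit, eBayes with trend) on log2(FPKM + 1). Genes averaging under 1 FPKM in a fit were left out. Tests were two-sided, with Benjamini-Hochberg adjustment over all genes tested and a threshold of 0.05. RD and Rh30 were fitted separately (6 libraries each), the difference between lines as an interaction over 12 libraries, and Scramble between lines over 6. The members, lists and tests were chosen with earlier results of these data known. Named genes were the 10 members, KDM3A, SRF, MKL1, MKL2, up to 3 called genes with the largest change from each list and line, and the 5 genes most correlated with TAGLN and with TPM1. LIMA1, FHL2, ELK4, SCAI and COL1A1 fall under this rule in at least 1 line. Some items that this rule selects, and results that need them, are not reported here, and 1 gene was left out of the paralog list for this reason. The genes LUM, NOTCH3, CHRNA1, CDH15, MYH11, LMOD1, KCNMB1, MYOD1, MYOG, MYOCD, PCSK7, STAMBPL1, TPM1-AS and TAGLN2 were named after their values were seen. Of these, LUM, NOTCH3, CHRNA1, CDH15, MYOD1 and MYOG also fall under the rule in at least 1 line. The code was checked on simulated data. Alternatives were a pseudocount of 0.1, no filter, at least 10 FPKM in at least 1 library, values scaled to the same sum, ANOVA on unlogged FPKM, limma without a trend, summed repeated entries, a replicate block and each library left out. Promoters came from RefSeq and 3′ UTRs and positions from GENCODE 29. Python 3.11.15, pandas 2.3.3, NumPy 2.4.6 and matplotlib 3.10.9 were used.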

Additional observations from a re-analysis of the deposited data

Results flagged for a closer look

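For 6 of the 8 tested genes the effect of KDM3A-sh2 was not the same in RD and Rh30 by the limma interaction, beside 27.8% of all 18517 genes. KDM3A itself fell further in RD than in Rh30 (difference 0.37 ± 0.12 SE, limma interaction, adjusted p = 0.0388). Whether this bears on the differences of the other genes was not tested. TPM1, chosen for its difference of -1.42 on the log2 scale, is described without a test, and its libraries moved the same way in both lines. For TAGLN every KDM3A-sh2 library was above Scramble in RD and below it in Rh30 (difference -2.37 on the log2 scale). This difference was not tested, since it chose the gene. By the limma interaction over 12 libraries, the differences of the others were -0.88 for MYL9, -0.67 for CNN1, -0.61 for FLNC, -0.44 for CALD1, 0.39 for TPM2 and -0.24 for FLNA. MYL9 and CNN1 rose in RD and did not pass the threshold in Rh30, and MYL9 was at 268 FPKM in RD Scramble and 8.00 in Rh30 Scramble. The call for FLNA was lost in other settings, as given in the next part.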

How the results depend on the processing

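Over the 8 tested genes, the number called in RD was 5 (5 to 6 with 1 library left out), in Rh30 5 (3 to 5), for the difference 6 (5 to 6) and between lines with Scramble 6 (6 to 7). In Rh30 it was 3 without a filter on low values and 3 by ANOVA on unlogged FPKM, where ACTA2 and NEXN were lost, and also 3 without Rh30 Scramble replicate 3 or any 1 of the 3 Rh30 KDM3A-sh2 libraries. ACTA2 was further lost without Rh30 Scramble replicate 1. Fewer of all genes were called in these Rh30 settings too. There were 5066 of 17803 in the main fit, 4094 of 32977 without a filter and 3659 of 17803 by ANOVA. With 1 Rh30 library left out, 3215 to 4071 genes were called. In RD 7390 of 17988 genes were called, and 5984 to 6358 with 1 library left out. Signs changed only for values that had not passed the threshold. FLNA in RD was 0.00114 with libraries scaled to the same sum and ran from -0.0845 to 0.0349 with 1 library left out (positive without RD Scramble replicate 3), ACTA2 in RD ran from -0.148 to 0.0223 (positive without RD KDM3A-sh2 replicate 2), and the NEXN difference was 4.51 FPKM on the unlogged scale (ANOVA). The cause was not tested. The FLNA difference was not called with a pseudocount of 0.1 (adjusted p = 0.052), without a filter (0.0979), by ANOVA (0.506), by limma without a trend (0.08), or without any of 9 of the 12 libraries. CNN1 and ACTA2 are below the filter of 10 FPKM and have no value there. With a pseudocount of 0.1, TAGLN was -1.62 in Rh30 and its difference was -2.53. Scaled to the same sum, TPM1 was -0.13 in RD. Deviations of same-numbered libraries had correlations from -0.07 to 0.06. Of 6 libraries, 0 correlated best with their own number in RD and in Rh30, and 2 between the lines with Scramble. The labels state no pairing, and with 3 libraries per group these values cannot exclude one. The short names of the 3 Rh30 Scramble libraries all end in the same number, so their replicate numbers came from the sample titles. These libraries varied as much as those of the other groups (median SD of log2(FPKM + 1) over genes 0.0946, beside 0.0828 to 0.0891). This spread cannot tell whether they came from separate cultures, since replicates of the other groups may be technical too. With a replicate block the counts were 5, 4, 6 and 6, and ACTA2 in Rh30 was not called (adjusted p = 0.0574). FPKM carry no read numbers, so counting error of low genes such as CNN1 and ACTA2 could not be given.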
